A study of Mus musculus with 12 samples.

Results

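Aldh1a1, Gda, Plscr2, Nupr1, Ehd3 and Jam2 are 6 genes of the published signature of hematopoietic stem cell (HSC) ageing, out of 21938 protein-coding genes in the annotation. They were chosen by measured values: in earlier results on the same 12 libraries, the accessibility around these genes showed no clear change between 3 and 18 months. Values by age are therefore given below as a description, with no p, and nothing is read from them as a test. A region belonged to a gene when it overlapped the gene body or the 10 kb on either side, which gave 28 of the 71006 regions found in all. The question asked of them was whether the genes were already open at 3 months.

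The measurements were ATAC-seq, in which a transposase cuts and tags open DNA, on HSCs sorted from bone marrow of C57BL/6 mice. The 4 groups of 3 libraries were Young WT and Young Mlkl-/- at 3 months and Aged WT and Aged Mlkl-/- at 18 months. Mlkl-/- mice lack MLKL, the pseudokinase that carries out necroptosis. Per the study's methods 1 library stands for a pool of mice, young pools held more animals than aged ones, and all were prepared on 1 day. The labels give no sex, and the study used both. Tests between groups therefore measure the spread between such pools.

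HSCs sit at the top of blood formation, and with age they increase in number while their output shifts away from lymphocytes. The signature genes are known for higher RNA levels in aged HSCs, and RNA was not analysed here. Aldh1a1 encodes a retinaldehyde dehydrogenase that makes retinoic acid, and Gda encodes guanine deaminase, an enzyme of purine breakdown. Plscr2 belongs to the phospholipid scramblase family, Ehd3 encodes an ATPase of endocytic recycling, Jam2 a junctional adhesion molecule, and Nupr1 a small stress-induced nuclear protein. An open promoter allows transcription but does not measure it.

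Each list holds peak summits with a score, the −log10 of the q-value from the authors' peak caller, and summits with a score of at least 3 were kept. Each summit was extended by 250 bp both ways, overlapping stretches of the 12 lists were joined into regions, and a list that had a summit in a region is said to call it. Its rank in a list is counted from 1, the highest score, among the 28428 (Young Mlkl-/- 3) to 48959 (Aged WT 3) regions that the list called. The aged lists called 38931 regions or more and the young lists 46823 or fewer. The longest young list was thus longer than 3 of the 6 aged lists. Read depth was unknown. Young Mlkl-/- 2, Aged WT 3 and Aged Mlkl-/- 1 had the longest or second longest list of their group, and their file names lack a tag that the other 9 carry and the labels do not explain. Among 8 HSC marker genes, 4 had a start region called in all 12 lists (Kit, Mecom, Hlf and Meis1). The share over all protein-coding genes was 50.2%. In part of the lists a start region was called for Ly6a (6 lists), Gata2 (7) and Procr (9). Slamf1, the gene of the CD150 used in the sort, had none. A start region was called in all 12 lists for 1 of 7 lymphoid genes (Ebf1, with the other 6 called in none), 0 of 5 mature myeloid genes, 1 of 3 erythroid genes (Epor) and 1 of 5 stromal and endothelial genes (Kdr).

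Regions are named by the gene and the distance in bp from the region's highest summit to the nearest annotated start of that gene, with a minus sign for upstream. The sequences below are from the mm10 (GRCm38) reference, plus strand, within 100 bp of the highest summit of the highest-ranked start region of 5 genes and of the region of highest rank near Nupr1. The last one is the region 5051 bp upstream of Gda, the only one of the 28 called in all aged and in no young list. Untranslated exon bases were left out, so 3 stretches are shorter. Capitals mark matches to 4 motifs, searched on both strands. The RUNX motif was spelled TGTGGTT, as bound by the RUNX factors of blood cells. For the ETS family the letters AGGAAGT were used, and for the GATA factors the letters AGATAA. The fourth motif, of the AP-1 dimers, was TGANTCA.
Aldh1a1 −30 bp (chr19:20601831-20601960): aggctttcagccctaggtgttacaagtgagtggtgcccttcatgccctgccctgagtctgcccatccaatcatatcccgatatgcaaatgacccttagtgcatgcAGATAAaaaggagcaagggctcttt
Gda −1155 bp (chr19:21441914-21442114): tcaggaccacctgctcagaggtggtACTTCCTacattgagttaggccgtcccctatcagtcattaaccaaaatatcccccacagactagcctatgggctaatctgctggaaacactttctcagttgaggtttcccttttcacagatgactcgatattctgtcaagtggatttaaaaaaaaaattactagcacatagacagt
Plscr2 −1029 bp (chr9:92274473-92274673): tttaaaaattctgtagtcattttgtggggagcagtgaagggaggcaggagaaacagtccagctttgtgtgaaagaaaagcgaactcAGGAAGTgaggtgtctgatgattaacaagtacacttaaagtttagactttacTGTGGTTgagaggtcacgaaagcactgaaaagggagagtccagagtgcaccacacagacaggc
Nupr1 +4096 bp (chr7:126621480-126621680): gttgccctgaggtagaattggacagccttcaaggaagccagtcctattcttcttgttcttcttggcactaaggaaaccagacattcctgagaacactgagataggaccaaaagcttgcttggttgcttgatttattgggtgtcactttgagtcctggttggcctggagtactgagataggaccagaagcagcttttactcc
Ehd3 −17 bp (chr17:73804724-73804840): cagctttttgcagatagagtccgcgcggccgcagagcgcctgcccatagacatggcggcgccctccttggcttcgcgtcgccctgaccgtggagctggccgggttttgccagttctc
Jam2 +135 bp (chr16:84774487-84774621): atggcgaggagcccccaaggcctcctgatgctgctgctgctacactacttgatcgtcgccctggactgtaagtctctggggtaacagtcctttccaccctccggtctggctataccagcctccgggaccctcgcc
Gda −5051 bp (chr19:21478396-21478596): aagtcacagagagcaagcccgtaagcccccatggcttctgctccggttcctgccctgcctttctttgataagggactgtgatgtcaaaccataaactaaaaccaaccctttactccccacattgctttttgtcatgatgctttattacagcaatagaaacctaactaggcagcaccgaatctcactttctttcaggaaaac

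The stretch at Aldh1a1 −30 bp held 1 GATA match. Gda −1155 bp held 1 ETS match, on the minus strand, and Plscr2 −1029 bp held 1 ETS and 1 RUNX match that do not overlap. The other 4 stretches held none, although at Ehd3 −17 bp an ETS match lay 24 bp past the summit, among the bases left out. Of the 11 regions called in all 12 lists, 5 held an ETS, 2 a RUNX, 1 a GATA and 0 an AP-1 match within 100 bp of the summit. In all 71006 regions the shares were 16.1%, 10.3%, 9.28% and 10.2%, and in the 16317 start regions of protein-coding genes 7.6%, 3.25%, 3.09% and 4.01%. These matches are a description of letters in a window.

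The start regions differed in base composition. Start regions of protein-coding genes had a median GC content of 64.2% and 16 CpG dinucleotides in that window, against 51.7% and 4 in all regions. Gda +45 bp (69.7%, 14 CpG), Ehd3 −17 bp (67.2%, 23 CpG) and Jam2 +135 bp (65.7%, 12 CpG) were rich in GC. Aldh1a1 −30 bp (51.2%, 2 CpG), Gda −1155 bp (42.8%, 2 CpG), Plscr2 −1029 bp (44.3%, 2 CpG) and Plscr2 +376 bp (45.8%, 1 CpG) were not.

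Of the 6 genes, 5 had a start region called in all 6 young lists, and each of them was called in all 12. A start region is one that overlaps the 1 kb on either side of an annotated start. Of all protein-coding genes, 51.3% had a start region called in 6 of 6 young lists and 50.2% in 12 of 12. When each list was reduced to its 35714 highest summits, the length of the shortest list, 4 of the 6 genes kept a start region in all 6 young lists, against 46.3% of all genes. Aldh1a1 was then called in 5 of 6. Nupr1 had no start region in any list. In bulk samples like these, a signal in fewer cells and a weaker signal per cell cannot be told apart.

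Of the 28 regions, 11 (39.3%) were called in all 6 young lists, against 30.9% of all regions, and the same 11 were called in all 12 lists, against 28.6%. The 11 comprised the 7 start regions and 4 others, 1 each near Aldh1a1 and Nupr1 and 2 near Jam2. Another 9 regions were called in aged lists only, against a share of 21.1% of all regions, and 3 in young lists only, against 8.85%. The remaining 5 were called in some lists of both ages. The regions called per library numbered 12 to 15 in young and 16 to 19 in aged lists. The aged lists were mostly longer, with 38931 to 48959 regions in all against 28428 to 46823 in young lists. With lists of equal length the regions of the 6 genes numbered 11 to 13 in young and 12 to 15 in aged lists, so the ages overlapped. A total of 19 regions were called in at least 3 whole lists and are named below. The other 9 were called in 1 list (7 regions) or 2 lists (2 regions), at rank 26056 or lower. The lowest score that made a call was 3.00, at Plscr2 −9706 bp in Aged Mlkl-/- 2, and the highest score just below the minimum was 2.90, at Nupr1 −4297 bp in Aged WT 1.

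**Figure D1:**
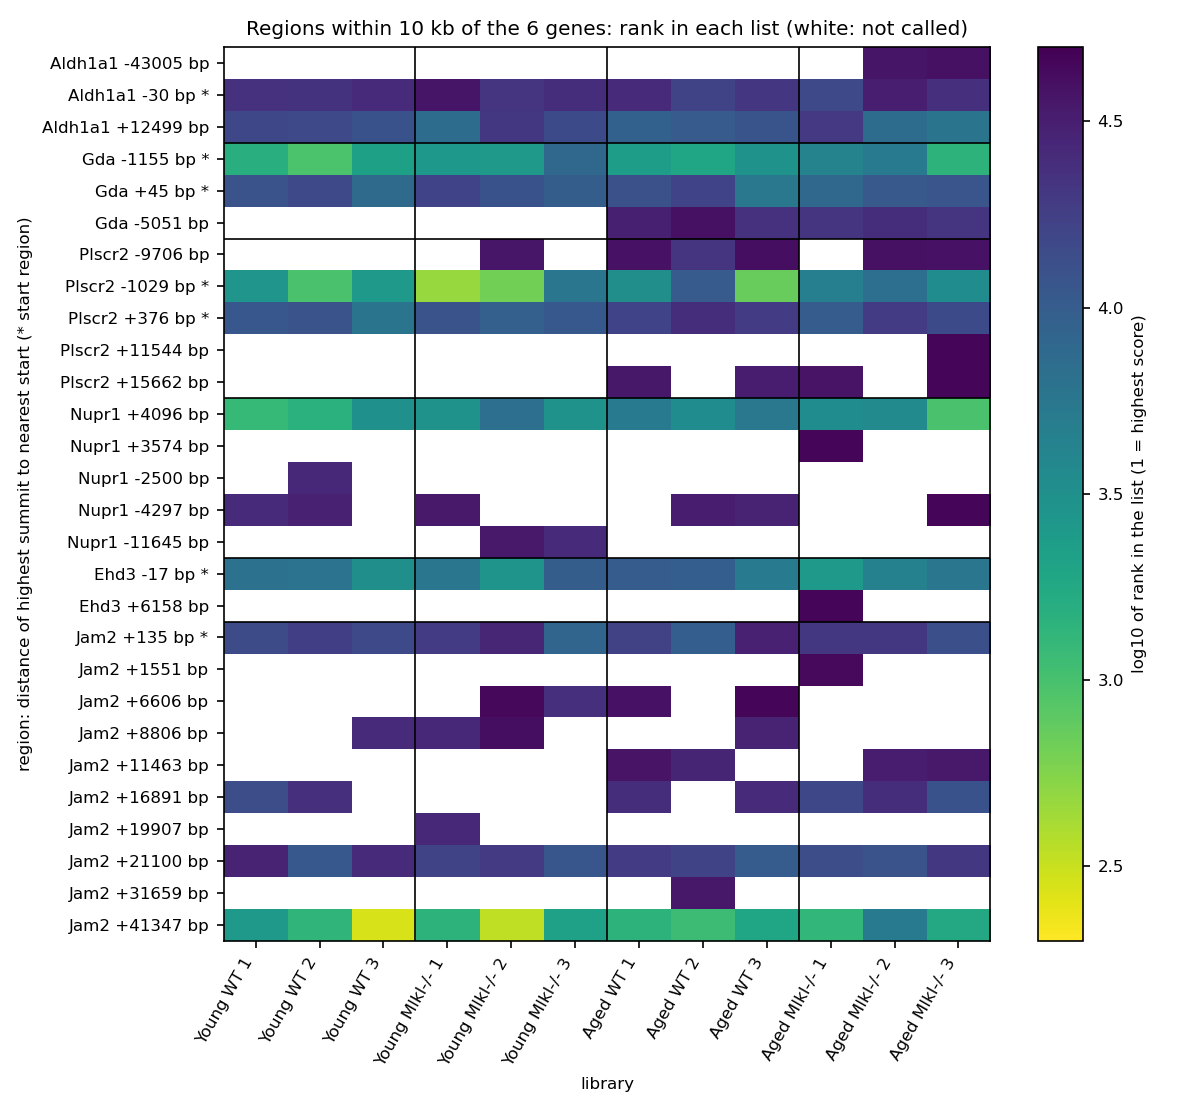
Calls of the 28 regions (rows, ordered by gene, with the distance of the highest summit to the nearest start in bp and an asterisk for start regions) in the 12 lists (columns, by group). The colour is the log10 of the rank in the list, with 1 the highest score, and white means not called. The 11 regions called throughout form full rows, and Gda −5051 bp is coloured in the 6 aged lists and white in the 6 young ones.

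The start regions that were open at 3 months ranged from low to high rank. To compare genes, the highest-ranked start region of each was given a percentile among all 71006 regions in each young list of equal length, where regions not called share about the 29.3 level. The 11256 protein-coding genes open in all 6 young lists had a median of 87.93, with quartiles at 79.34 and 94.11. Plscr2 had a mean young percentile of 96.9 ± 2.79 (SD, n = 6), above 87.82% of the open genes, and Gda 95.8 ± 3.51, above 83.15%. Ehd3 had 92.0 ± 3.52, above 65.82%. Jam2 (76.3 ± 8.98, above 19.01%) and Aldh1a1 (60.7 ± 15.6, above 4.06%) lay under the lower quartile. Neighbours in this order, Plscr2 and Gda, Gda and Ehd3, and Jam2 and Aldh1a1, were within the sum of their SDs, and Ehd3 and Jam2 were not. The Plscr2 and Gda values are those of Plscr2 −1029 bp and Gda −1155 bp, which cover no start and end 758 and 802 bp from one. The other start regions of these 2 genes lay under the median of 87.93. Gda +45 bp, over the exon 1 start, had 82.8 ± 4.67, and Plscr2 +376 bp had 85.5 ± 3.31.

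**Figure D2:**
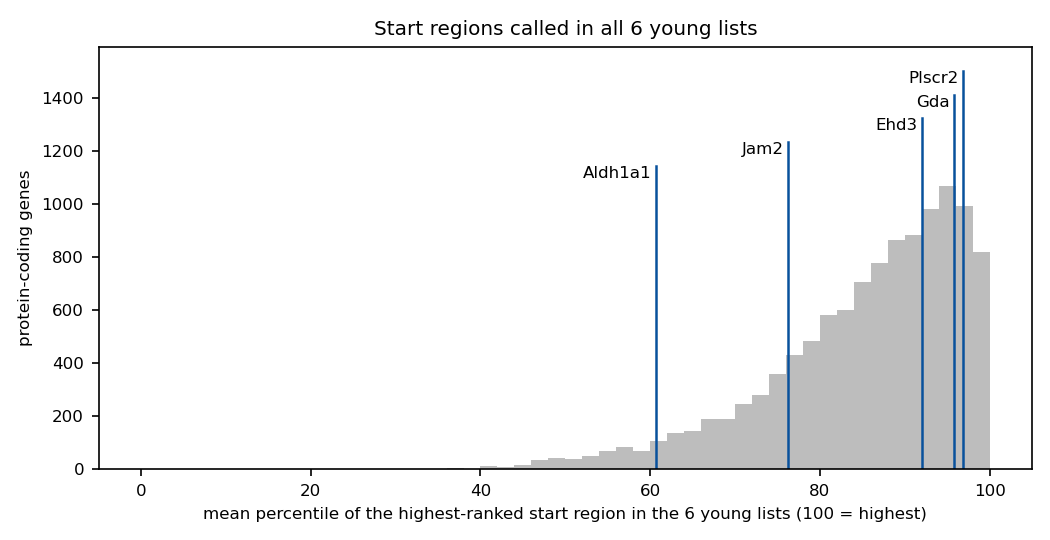
Histogram of the mean percentile in the 6 young lists (x axis, 100 is the highest) of the highest-ranked start region of protein-coding genes (y axis, genes per bin). Genes are drawn where that region itself was called in all 6 lists. The median and quartile given here are those of the 11256 genes with any start region called in all 6. The blue lines mark the 5 genes with a start region: Plscr2, Gda and Ehd3 stand above the median of 87.93, and Jam2 and Aldh1a1 below the lower quartile of 79.34. The Plscr2 and Gda lines are those of Plscr2 −1029 bp and Gda −1155 bp, which lie near a start without covering it.

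Aldh1a1 (chr19:20492715-20643465, plus strand) was open at its downstream start and at an intronic site. Aldh1a1 −30 bp (chr19:20601583-20602252) covers the start at 20601961, and no region was called within 10 kb of the upstream start at 20492715. It ranked 22804, 22207 and 25893 in Young WT, 36767, 21234 and 24488 in Young Mlkl-/-, 25461, 16001 and 20892 in Aged WT and 14666, 31657 and 24043 in Aged Mlkl-/-. The 4 groups overlapped, and Young Mlkl-/- 1 had the lowest place. Aldh1a1 +12499 bp (chr19:20614199-20614906, intron) ranked higher than the start in every list except Aged Mlkl-/- 1, at 7122 to 20506 in young and 5959 to 20087 in aged lists. The age difference (aged minus young, in mean normal score of the rank) was 0.11 ± 0.26 at the start and 0.20 ± 0.16 (SE) at the intron. A normal score puts the rank on a standard normal scale, where a region not called lay between −0.575 and −0.525. One more region, in an intron far upstream of that start, was called in 2 Aged Mlkl-/- lists only.

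Gda (chr19:21391307-21473445, minus strand) had 2 start regions in all lists. Gda −1155 bp (chr19:21441661-21442311), in an intron of the long transcripts, ends 802 bp from an internal start at 21440859. It ranked 1540, 958 and 2185 in Young WT, 2655, 2520 and 7873 in Young Mlkl-/-, 2334, 1955 and 2901 in Aged WT and 4249, 5272 and 1398 in Aged Mlkl-/-. The 3 Young WT ranks were above the 3 Young Mlkl-/- ranks, while young and aged lists overlapped. Gda +45 bp (chr19:21472181-21472923) covers the start at 21472672, in exon 1, and ranked 7349 to 16516 in young and 5518 to 16649 in aged lists. The age difference was −0.06 ± 0.14 at the internal start and 0.09 ± 0.15 (SE) at exon 1.

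At Gda −5051 bp (chr19:21478200-21478813, intergenic) the calls differed between the ages, against the description of the 6 genes as without clear change. It was not called in any of the 6 young lists, where no summit of a score between 2 and 3 was present either. It ranked 31049, 38701 and 23025 in Aged WT and 21498, 24559 and 21225 in Aged Mlkl-/-, with scores of 6.79, 3.37, 9.99, 11.6, 7.50 and 13.5 in the same order. Such a split, with all 6 aged and none of the young lists, was seen in 0.841% of all regions. With lists of equal length the calls were 4 aged (Aged WT 3 and the 3 Aged Mlkl-/-) and 0 young. The age difference was then 0.68 ± 0.22 (SE). With lists of unequal length, of which most aged ones are longer, it was 1.01 ± 0.24 (SE). The region was singled out by these calls, so the values describe it and test nothing. The young list of 46823 regions, longer than 3 of the aged ones, did not call the region. That is 1 library of unknown read depth, and whether depth or list length made the split was not tested. Without the 3 libraries that lack the file name tag, the calls were 0 of 5 young and 4 of 4 aged.

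Plscr2 (chr9:92275602-92297752, plus strand) had the start region of highest mean percentile. Plscr2 −1029 bp (chr9:92274294-92274844, intergenic) ends 758 bp before the first annotated base. It ranked 2837, 980 and 2504 in Young WT, 472, 647 and 5704 in Young Mlkl-/-, 3269, 10285 and 725 in Aged WT and 4613, 6615 and 3420 in Aged Mlkl-/-. Young and aged lists overlapped, with an age difference of −0.41 ± 0.20 (SE). Plscr2 +376 bp (chr9:92289633-92290219, intron) lies 61 bp past an internal start at 92289572. It ranked 11247, 12153 and 6019 in Young WT, 12079, 9229 and 11059 in Young Mlkl-/-, 16526, 24335 and 18639 in Aged WT and 10034, 19366 and 14575 in Aged Mlkl-/-. The 3 Aged WT ranks were below all 6 young ranks and 1 Aged Mlkl-/- rank was not, with an age difference of −0.36 ± 0.14 (SE).

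The other Plscr2 regions were called mostly in aged lists and at low rank. Plscr2 −9706 bp (chr9:92265616-92266282) lies in an intron of the neighbouring paralogue Plscr1 and was called in 1 young list (Young Mlkl-/- 2, rank 35872) and 5 aged lists (ranks 21405 to 40477). Plscr2 +15662 bp (chr9:92304896-92305486), near a start of Gm29139, was called in 0 young and 4 aged lists, at ranks 31998 to 45871. With lists of equal length Plscr2 −9706 bp was called in Aged WT 2 only and Plscr2 +15662 bp in no list.

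Nupr1 (chr7:126623249-126630861, minus strand) had no region within 1 kb of 126625676, the only start in the basic annotation. Its one region in all lists was Nupr1 +4096 bp (chr7:126621271-126621838), which is intergenic and lies past the end of the gene. That region ranked 1245, 1470 and 3099 in Young WT, 2982, 6659 and 3028 in Young Mlkl-/-, 5245, 3414 and 5449 in Aged WT and 3436, 3582 and 971 in Aged Mlkl-/-. All 3 Young WT ranks were above all 3 Aged WT ranks, whereas the Mlkl-/- groups overlapped, and the age difference was −0.44 ± 0.19 in WT, 0.25 ± 0.19 in Mlkl-/- and −0.10 ± 0.13 (SE) over both. Nupr1 −4297 bp (chr7:126629648-126630271), in an intron, was called in 3 young lists (2 Young WT, 1 Young Mlkl-/-) and 3 aged lists (2 Aged WT, 1 Aged Mlkl-/-), at ranks from 25480 to 46438. It ends 590 bp from 126630861, the start of a longer non-coding Nupr1 transcript outside the basic annotation.

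Ehd3 (chr17:73804134-73832094, plus strand) had a single region named, over its start. Ehd3 −17 bp (chr17:73804565-73805100) covers the start at 73804841. It ranked 6394, 6089 and 3180 in Young WT, 5761, 2863 and 9722 in Young Mlkl-/-, 10092, 9537 and 5030 in Aged WT and 2523, 4439 and 5786 in Aged Mlkl-/-. All 4 groups overlapped with at least 1 other, and the age difference was −0.04 ± 0.13 (SE). One more region in its body was called in Aged Mlkl-/- 1 only.

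Jam2 (chr16:84774123-84825928, plus strand) had 10 regions, the most of the 6 genes. Jam2 +135 bp (chr16:84773982-84775338) covers the starts at 84774123 and 84774386, with its highest summit in the coding part of exon 1. It ranked 13892, 17910 and 14941 in Young WT, 18637, 27463 and 8263 in Young Mlkl-/-, 17207, 9688 and 30206 in Aged WT and 20474, 20438 and 12866 in Aged Mlkl-/-. The groups overlapped and the age difference was −0.07 ± 0.19 (SE). Jam2 +21100 bp (chr16:84814395-84815084, intron), with a RUNX match at its summit, was called in all lists, at ranks 10973 to 29620 in young and 10045 to 20327 in aged lists. Jam2 +41347 bp (chr16:84834452-84836146) covers the shared start of Atp5j and Gabpa, so it is a promoter of other genes that reaches into the 10 kb past Jam2. It ranked 278 to 2494 in young and 1125 to 5238 in aged lists.

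The other Jam2 regions named, all inside the gene, were called in part of the lists. Jam2 +16891 bp (chr16:84810186-84810734), in an untranslated part of exon 4 of a Jam2 transcript, was called at ranks 13470 and 23894 in 2 of 3 Young WT, in 0 of 3 Young Mlkl-/-, at 24077 and 26133 in 2 of 3 Aged WT and at 15076, 24156 and 12426 in 3 of 3 Aged Mlkl-/- lists. All 7 calls held with lists of equal length, and the age difference was 0.54 ± 0.27 (SE). Jam2 +11463 bp (chr16:84804764-84805335) was called in 0 young and 4 aged lists, 1 of them at equal length. Jam2 +8806 bp (chr16:84802112-84802649) was called in 3 young and 1 aged lists, and Jam2 +6606 bp (chr16:84799914-84800447) in 2 and 2. All 3 of these regions lie in introns.

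**Figure D3:**
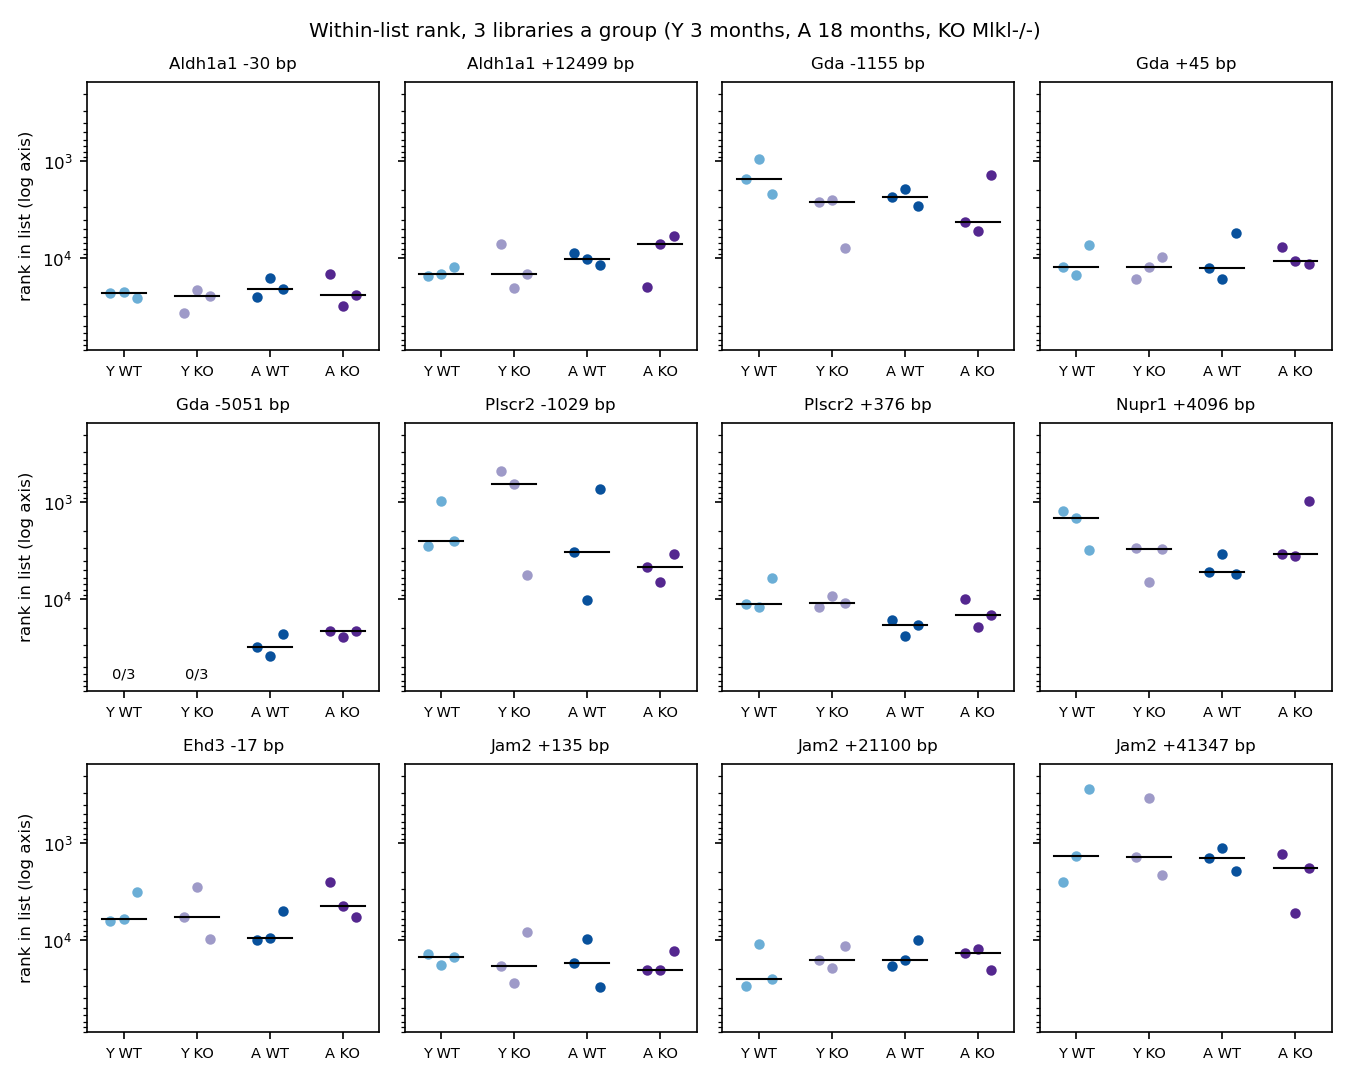
Rank in the list (y axis, log scale, 1 is the highest score and lies upward) of the 11 regions called in all 12 lists and of Gda −5051 bp, by group (x axis: Y 3 months, A 18 months, KO Mlkl-/-), with 1 point per library and a bar at the median of 3. Gda −5051 bp has no young points (0/3 in each young group), and in the other panels young and aged points overlap.

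Over both genotypes, 0 of the 14 regions of the 6 genes that could be tested were past an adjusted p of 0.01 for age in limma, beside 2.7% of the 37881 regions tested in all. Since the age change chose the genes, nothing is read from that count. The age differences ran from −0.41 (Plscr2 −1029 bp) to 0.68 (Gda −5051 bp), with a median of −0.05 and 6 of 14 above 0, against a median of −0.01 and quartiles of −0.21 and 0.22 over all regions. The 14 were those called in at least 3 lists of equal length.

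The genotype comparison, which did not choose the genes, asked whether loss of Mlkl went with another rank at these regions. None of the 14 regions was past the threshold over both ages, at 3 months, at 18 months or in the difference of age changes between genotypes. The shares of all 37881 regions past it were also 0% (0 regions) in each of these 4 comparisons by limma, with 6.2%, 5.37%, 5.11% and 4.77% of regions under an unadjusted p of 0.05. Of the 14, those under an unadjusted p of 0.05 numbered 1, 2, 1 and 2 in the same order. The lowest adjusted p over all regions was 0.765 over both ages, 0.499 at 3 months, 0.632 at 18 months and 0.965 for the difference of age changes.

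At the internal Gda start, Gda −1155 bp, Young WT had a mean normal score of 2.03 and Young Mlkl-/- of 1.60, while Aged WT had 1.83 and Aged Mlkl-/- 1.69 (n = 3 each). The genotype difference was −0.43 ± 0.19 at 3 months (SE, limma unadjusted p = 0.0377, adjusted p = 0.872) and −0.29 ± 0.14 over both ages (unadjusted p = 0.0478, adjusted p = 0.765). Without Young Mlkl-/- 3, the lowest-ranked library there, the difference at 3 months was −0.24. At Gda −5051 bp the mean normal score at 18 months was −0.21 in Aged WT and 0.47 in Aged Mlkl-/-, a difference of 0.68 ± 0.31 (SE). With lists of equal length it was called in 1 Aged WT list, 3 Aged Mlkl-/- lists and 0 young lists. The region thus entered the comparison through the group where it was high, so nothing is read from this difference as a test. It is the 1 region counted above at 18 months. The difference was 0.32 with lists of unequal length, where all 6 aged lists called the region.

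At Jam2 +16891 bp, Young Mlkl-/- was 0.80 ± 0.38 below Young WT and Aged Mlkl-/- 0.64 ± 0.38 above Aged WT in mean normal score. The region was called in 0 of 3 Young Mlkl-/- lists (mean −0.55, the level of a region not called). It was called in 2 of 3 lists of each WT group and 3 of 3 of Aged Mlkl-/-. These differences thus rest largely on called against not called lists. The difference between the age changes was 1.44 ± 0.54 (limma unadjusted p = 0.0153, adjusted p = 0.965). At Nupr1 +4096 bp the same quantity was 0.69 ± 0.26 (limma unadjusted p = 0.0172, adjusted p = 0.965). At the remaining start regions the genotype differences over both ages were −0.31 ± 0.26 (SE) for Aldh1a1 −30 bp, 0.15 ± 0.13 for Ehd3 −17 bp, 0.08 ± 0.14 for Plscr2 +376 bp, and between −0.03 and −0.01 for Jam2 +135 bp, Gda +45 bp and Plscr2 −1029 bp. Aged Mlkl-/- 2 and Young Mlkl-/- 1 called Aldh1a1 −30 bp in whole lists (ranks 31657 and 36767) but not at equal length. They were thus scored as not called. The Aldh1a1 value was −0.118 without Aged Mlkl-/- 2, −0.146 without Young Mlkl-/- 1, −0.114 with lists of unequal length and −0.566 in the 9 libraries with the file name tag. None of these differences passed the threshold, which does not show that the genotypes were alike.

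**Figure D4:**
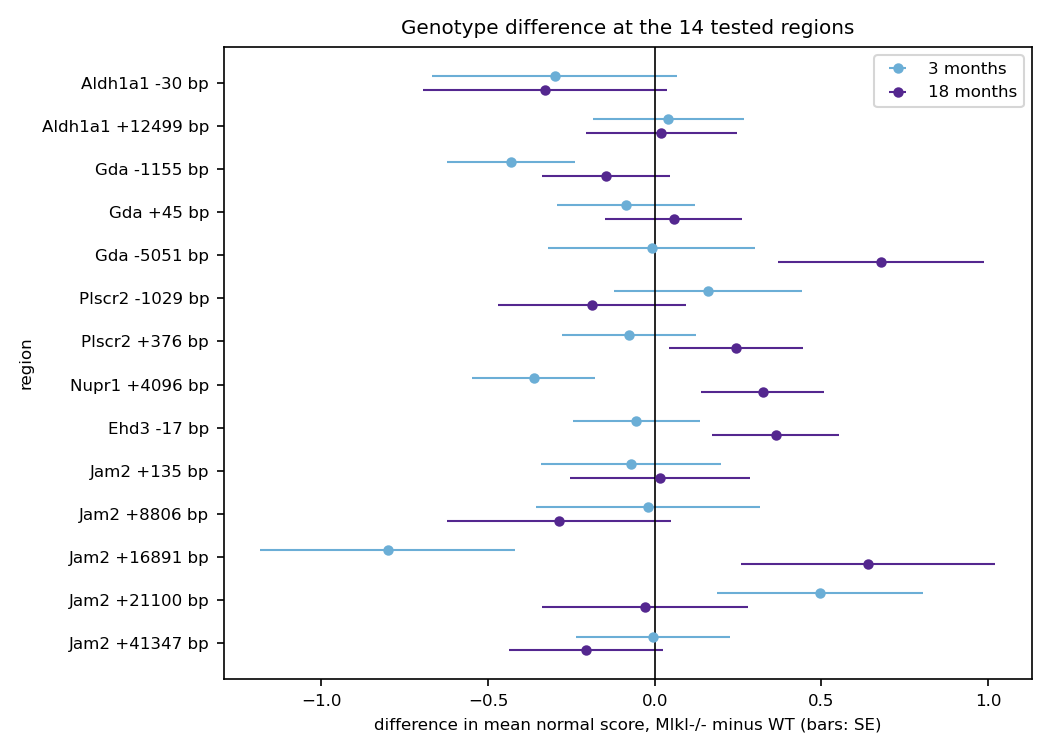
Difference in mean normal score of the rank, Mlkl-/- minus WT (x axis), for the 14 tested regions (y axis) at 3 months (light) and 18 months (dark), with bars of 1 SE. None passed an adjusted p of 0.01, and Jam2 +16891 bp had values on opposite sides of 0 at the 2 ages (−0.80 and 0.64).

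Other genes of the same signature and relatives of the 6 genes were set beside them. Of 16 other HSC ageing genes, 8 had a start region called in all 12 lists and 2 in none. The share called in all 12 over all protein-coding genes was 50.2%. Alcam (mean young percentile 96.65) was the highest and Neo1 and Sult1a1 shared the lowest value (29.32, the level of a region not called), with calls in 3 and 0 young lists. Of the 83 regions of these 16 genes, 26.5% were called in all 6 young lists, beside 30.9% of all regions. Of the 44 tested, 3 were higher and 1 lower with age, beside 2.7% in either direction over all regions. The 6 genes were set apart from these by their age change, so nothing is read from the contrast. Of 12 paralogues of the 6 genes, 11 were in the annotation, 8 had a start region called in all 12 lists and Aldh1a7 had none. Ehd4 (97.57) was the highest and Aldh1a2 (42.97) the lowest. Of the 48 regions of the paralogues, 43.8% were called in all 6 young lists, beside the same 30.9%. Of the 28 tested, 0 were higher and 1 lower with age, beside the same 2.7%. In both lists 0 regions were past the limma threshold for genotype.

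The genes whose start regions had ranks most like those of the 6 genes over the 12 libraries, out of 11562 candidates, are given as a description. By Pearson's r of the normal score these were Slc27a2 (0.94) and Ccdc136 (0.90) for Aldh1a1, Bscl2 (0.89) and Dcp1a (0.88) for Gda, and Robo4 (0.92) and B4galt4 (0.86) for Plscr2. For Ehd3 they were Fxyd5 (0.91) and Pdss2 (0.89), and for Jam2 they were Phf20 (0.94) and Dact3 (0.94). The points of each correlation share their libraries, and these genes were picked as the highest of all candidates. At Aldh1a1 −30 bp, Young Mlkl-/- 1 (−0.547) and Aged Mlkl-/- 2 (−0.565) had the level of a region not called at equal length. The other libraries lay between 0.327 and 0.818 there, so those 2 libraries weigh heavily in its correlations.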

How the data were processed

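HSC ATAC-seq libraries (12, in 4 groups of 3) were analysed from the deposited summit lists. The authors mapped reads to mm10 with Bowtie2 2.5.3 and called peaks in each library with MACS2 2.2.7.1 (submitters' processing notes). The deposited value is the −log10 of the q-value of each summit. It depends on its own library's depth, which is unknown without read counts, so the study's edgeR test was not run and ranks were used. Regions on chromosomes 1 to 19, X and Y were annotated with GENCODE vM21 (starts from the basic set). For normal scores and percentiles, lists were reduced to 35714 summits, and regions called in at least 3 were fitted with limma 3.58.1 (lmFit, eBayes with trend, 1 fit of 4 groups, Benjamini-Hochberg adjusted p under 0.01 over 37881 regions), tested on simulated data. Ranks in the text come from whole lists. Regions called in at least 3 whole lists were named. Alternatives changed score minimum, list and window length, list minimum, scale, threshold, libraries, flank, start distance and replicate block. The genes, gene lists and motifs were chosen with earlier results of these data known. Python 3.11.15 and R 4.3.3 were used.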

Additional observations from a re-analysis of the deposited data

Results flagged for a closer look

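The deposited lists also held summits with a score under 3, which the comparisons did not use. Within 10 kb of the 6 genes there were 8, with scores from 2.01 to 2.90, in 6 libraries. Of these, 4 were in young and 4 in aged lists, and 7 lay inside a region already described. The remaining 1 was in the body of Ehd3 in Aged WT 1 (score 2.02). None lay at Gda −5051 bp.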

How the results depend on the processing

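No setting gave a genotype call or a call on the difference of age changes at the regions of the 6 genes (0 throughout, also 0 with the replicate number as a replicate block). Same-numbered libraries showed no shared deviation (correlations from −0.30 to 0.13, median −0.01, over 18 pairs), but 3 libraries a group cannot exclude a pairing. For libraries of different number they ran from −0.18 to 0.31 (median 0.0035, 36 pairs). The highest, 0.31, was between Young Mlkl-/- 2 and Aged WT 3, which both lack the file name tag. Aged Mlkl-/- 1, which also lacks it, had 0.10 and 0.11 with them. Young Mlkl-/- 3 and Aged WT 2, which carry the tag, had 0.27, and the cause was not tested. The count for age is a description because age chose the genes. It was 1 of 19 (Gda −5051 bp) with lists of unequal length, most of the aged ones longer, and 0 in the other settings. Over all regions, 3.88% (2030 of 52332) were past the threshold for age with lists of unequal length. The number of genes with a start region in all 6 young lists was 4 or 5, and of regions 8 to 12. Genotype differences near 0 changed sign without a call. The Ehd3 −17 bp difference ranged from 0.0699 to 0.233 and the Plscr2 +376 bp difference from 0.0232 to 0.15 with each library left out. Jam2 +135 bp was 0.0055 with windows of 100 bp and 0.0217 with a covariate for list length, which was added after seeing the data, and −0.150 to 0.0809 with each library left out. Gda +45 bp was 0.0775 percentile points on percentiles, 0.0424 in the 9 libraries with the file name tag and −0.0899 to 0.0841 with each library left out. Plscr2 −1029 bp was 0.0694 in those 9 libraries and −0.172 to 0.155 with each library left out. With that covariate the age difference was −0.33 at Gda −1155 bp, −0.87 at Plscr2 −1029 bp and −0.20 at Ehd3 −17 bp, and it changed sign at Aldh1a1 −30 bp (−0.14) and Jam2 +135 bp (0.21), and the cause was not tested. Unknown depth and 3 libraries a group limit every comparison.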
